A study of Danio rerio with 11 samples.

Results

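The surroundings of the tert and sox2 loci were examined as windows of 250 kb to each side of a pair of short PCR amplicons of the zebrafish Zv9 build. The tert amplicon lies at chr19:605507-605752 and the sox2 amplicon at chr22:40332024-40332146, so the windows run over chr19:355507-855752 and chr22:40082024-40582146. The windows were set by the positions of the amplicons, and the loci were chosen with earlier results of these data known. The windows held 975 of the 816382 peaks in the 9 peak lists of the series, 427 of them around tert and 548 around sox2. The study amplified both loci by quantitative PCR to check the capture of methylated DNA, because earlier work had described tert as methylation-rich and sox2 as methylation-poor. How peaks lie around the amplicons, in each tissue, is described below, and is not a direct measure of methylation.

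In MBD-seq, sonicated genomic DNA is bound to the methyl-CpG binding domain of a protein that recognizes methylated DNA, and the captured fragments are sequenced. A peak marks a stretch where fragments with many methylated CpGs pile up, and a stretch without peaks can be unmethylated, poor in CpGs, or covered by reads that could not be placed. All fish were of the Tübingen/AB background, per the methods of the study. The terminal tissues were eye, brain, heart and liver, dissected from adult females, and the embryonic samples were sperm, one-cell embryos, embryos at the mid-blastula transition (mbt) and embryos at 3 days post-fertilization (3dpf). The treated group, MTX-3dpf, was given 400 µM methotrexate, an inhibitor of dihydrofolate reductase and so of the supply of methyl groups, applied at the one-cell stage. The terminal tissues were collected from one pool of females, so their 4 lists share animals and are not independent in the tests below. The other samples pooled several males or many embryos, and organs and whole embryos mix many cell types. A list rests on 1 enriched library, apart from that of brain, which joins the reads of 2 lanes. No condition had replicates, so every difference between single lists is without a replicate check.

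Vertebrate genomes carry CpG methylation over most of their length, with unmethylated islands at many gene starts, and genes that control development often sit in broad unmethylated domains. tert encodes the catalytic subunit of telomerase, the enzyme that extends chromosome ends. sox2 encodes an HMG-box transcription factor of pluripotent cells and of neural progenitors, which is also at work in the developing eye. In the GRCz12tu assembly, a later build that was used here for gene order only, tert stands between nup42, which encodes a nucleoporin, and slc6a18, a member of a family of amino acid transporters. sox2 lies there inside sox2ot, a long non-coding RNA gene, with atp11b and dnajc19 as the nearest coding genes. Genes were not placed on the Zv9 windows, so no peak is assigned here to an exon, an intron or a promoter.

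The lists held between 45785 peaks in eye and 178587 in one-cell embryos. Eye, heart and liver were sequenced in lane 4, sperm, one-cell and mbt in lane 5, and brain in both, while 3dpf and MTX-3dpf came from another lane. Lane and class of tissue can therefore not be separated, and their effects cannot be told apart. Each peak is an interval extended by 100 bp from its center in both directions, with a score of the peak caller that has no stated unit. The score was therefore used only as a percentile within its list, where 50 is the median peak of that list. The study compared scores with bisulfite sequencing in 3dpf embryos and saw no relation to the level of CpG methylation. A higher or lower percentile is therefore not read here as more or less methylation. Peaks of the 9 lists that overlapped by at least 1 bp were joined into sites, of which there were 230956.

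**Figure D1:**
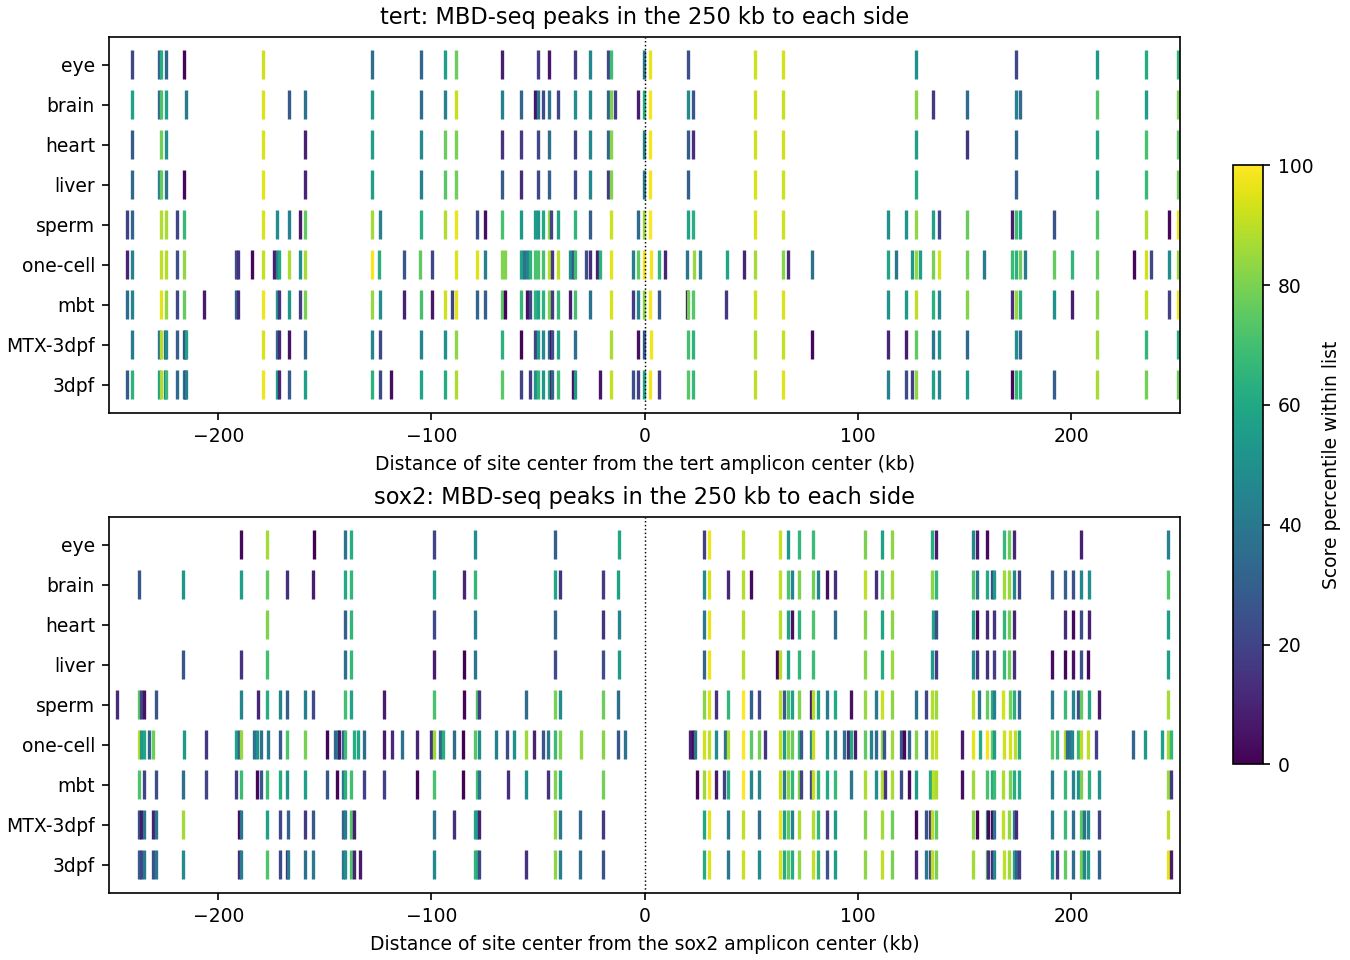
Peaks in the windows around tert (upper panel) and sox2 (lower panel), with 1 row for each list, the distance of the site from the amplicon center in kb on the x axis, and the score percentile within the list as color. Most lists had a peak at the tert amplicon, marked by the dotted line, and the row around the sox2 amplicon is empty in all 9 lists.

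At the tert amplicon itself a peak was found in 8 of the 9 lists. The intervals overlapped the amplicon by 76 bp in brain, 46 bp in heart and 56 bp in liver, against 63 bp in sperm, 84 bp at the one-cell stage, 70 bp in mbt and 39 bp in 3dpf. In MTX-3dpf the overlap was 54 bp. The eye peak ended 23 bp short of the amplicon and belonged to the same site, chr19:605283-605590, whose peak centers lay within 107 bp of each other over the 9 lists. The low-coordinate edge of the amplicon thus carried a site that every list held.

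Its rank differed widely between lists. The score percentile of the tert site was 63.3 in brain, 40.4 in eye, 44.9 in heart and 41.3 in liver, against 85.0 in sperm, 97.6 at the one-cell stage, 82.3 in mbt and 59.1 in 3dpf. It was highest in the one-cell list and lay above 80 in sperm and mbt, while 3dpf fell below brain, so that the terminal and embryonic ranges overlapped. MTX-3dpf had the lowest value, 28.0. Ranks of this kind depend on what else a list holds, and the sites found in all 9 lists had, over the whole lists, a median percentile between 54.3 and 71.0 in the terminal tissues and between 80.1 and 85.8 in the embryonic samples. Every list was also limited to its 45785 highest-scoring peaks, the length of the eye list. The amplicon was then overlapped in 7 of 9 lists. MTX-3dpf lost its overlap through this limit, whereas the eye list was unchanged by it and its peak ended 23 bp short, as before.

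The nearest peak on the high-coordinate side of tert was among the highest-ranked peaks of every list. It began 2.39 kb from the amplicon in eye, 2.43 kb in brain, 2.39 kb in heart and 2.39 kb in liver, against 2.43 kb in sperm, 2.92 kb at the one-cell stage, 2.41 kb in mbt and 2.40 kb in 3dpf. Its score percentile was 98.8 in brain, 96.3 in eye, 98.1 in heart and 98.3 in liver, against 99.5 in sperm, 98.3 at the one-cell stage, 99.0 in mbt and 97.5 in 3dpf. In 8 of the 9 lists, MTX-3dpf among them, this was the highest-ranked peak of the whole tert window. The exception was the one-cell list, whose highest peak, at the percentile 98.7, lay at −128.1 kb, on the low-coordinate side.

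The 9 peaks fell into a pair of sites that did not overlap. The site at 2.635 kb from the amplicon center, which starts at 608144, held the peaks of 7 lists within 40 bp, and the site at 3.09 kb, which starts at 608571, held those of one-cell embryos and MTX-3dpf. A strict count of shared sites therefore lists this stretch as differing between MTX-3dpf and 3dpf, although the peak of MTX-3dpf stood at the percentile 97.7 and that of 3dpf at 97.5.

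On the low-coordinate side, the lists differed in the site nearest to tert. A site that starts at 602240 was found in brain, sperm, one-cell, mbt, MTX-3dpf and 3dpf and in none of eye, heart and liver. Its percentile was 8.28 in brain, against 34.7 in sperm, 75.6 at the one-cell stage, 44.8 in mbt and 18.1 in 3dpf, and 3.93 in MTX-3dpf. It thus ranked below the median peak in the lists where it appeared, except for the one-cell list. Eye, heart and liver, which lacked it, had the shortest lists. The cut to equal list length lay above its percentile in every list that held it, except for the one-cell list. That cut was at 42.1 in brain, 52.6 in sperm and 74.4 in one-cell embryos. Whether its absence follows list length was not tested. In heart and liver the next peak stood 15.5 kb away, at a site held by all 9 lists that starts at 589834 and whose percentile ran from 68.7 in eye to 95.8 in one-cell embryos. The nearest site of all 9 lists on the other side, 52.0 kb from the amplicon, ranked between 86.5 in one-cell embryos and 94.4 in sperm.

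No list had a peak at the sox2 amplicon. The peak-free span that holds it was 40.2 kb in brain, 39.7 kb in eye, 39.7 kb in heart and 39.7 kb in liver, against 40.2 kb in sperm, 29.9 kb at the one-cell stage, 44.1 kb in mbt and 47.0 kb in 3dpf. MTX-3dpf had a span of 47.0 kb, as in 3dpf. The mean was 39.8 ± 0.242 kb in terminal tissues and 40.3 ± 7.45 kb in embryonic samples (SD between the tissues or stages, n = 4 each), and in the full lists the spans of the classes overlapped. The difference, terminal minus embryonic, was −0.46 kb and did not pass an exact permutation test over samples (two-sided, p = 0.886, adjusted p = 0.886 over the 4 tests made here). The value depended on single lists, at −3.92 kb without one-cell embryos (exact p = 0.0571, the smallest then possible, adjusted p = 0.114), 0.794 kb without mbt and 1.77 kb without 3dpf. It also depended on list length. In lists of equal length, made of the highest-scoring peaks, the span was 39.7 to 40.2 kb in terminal tissues, against 47.0 to 69.5 kb in embryonic samples. The difference was then −12.8 kb (exact p = 0.0286, the smallest this test allows, adjusted p = 0.0571), and the classes did not overlap. How often other spans part in this way was not computed. The cut to equal length fell at the percentile 0 in eye, 8.63 in heart, 8.74 in liver and 42.1 in brain. In the embryonic lists it fell between 52.6, in sperm, and 74.4, in one-cell embryos, so it took more peaks from these. Taking out peaks can lengthen a span but not shorten it, so the lack of overlap is not read here as a trait of sox2. With only the peaks that reached the median score in their own list, the difference had the other sign, at 21.1 kb, and did not pass the same exact test.

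The amplicon lay off center in this span, closer to its low-coordinate end. On that side the nearest peak was 12.1 kb away in eye, 12.5 kb in brain, 12.1 kb in heart and 12.0 kb in liver, against 12.5 kb in sperm, 8.88 kb at the one-cell stage, 19.3 kb in mbt and 19.3 kb in 3dpf. In MTX-3dpf it was 19.4 kb away. The peaks at about 12 kb formed neighboring sites, one held by eye, heart and liver and the other by brain, sperm and one-cell embryos. The lists of mbt, MTX-3dpf and 3dpf had no peak at either.

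On the other side, the span ended at 1 site for most lists. This site, which starts at 40359655, was present in all 9 lists, began 27.5 kb from the amplicon in eye, and ranked from 18.7 in eye to 92.5 in one-cell embryos. In 7 lists it was the first peak on that side. One-cell embryos had 3 sites of their own before it, the nearest 20.9 kb from the amplicon at the percentile 9.27, and mbt had 1 peak at 24.6 kb with the percentile 0.832. Just beyond the boundary site stood a site of all 9 lists that ranked between 90.4 in one-cell embryos and 98.8 in mbt, and which was the highest-ranked peak of the sox2 window in all 4 terminal tissues.

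**Figure D2:**
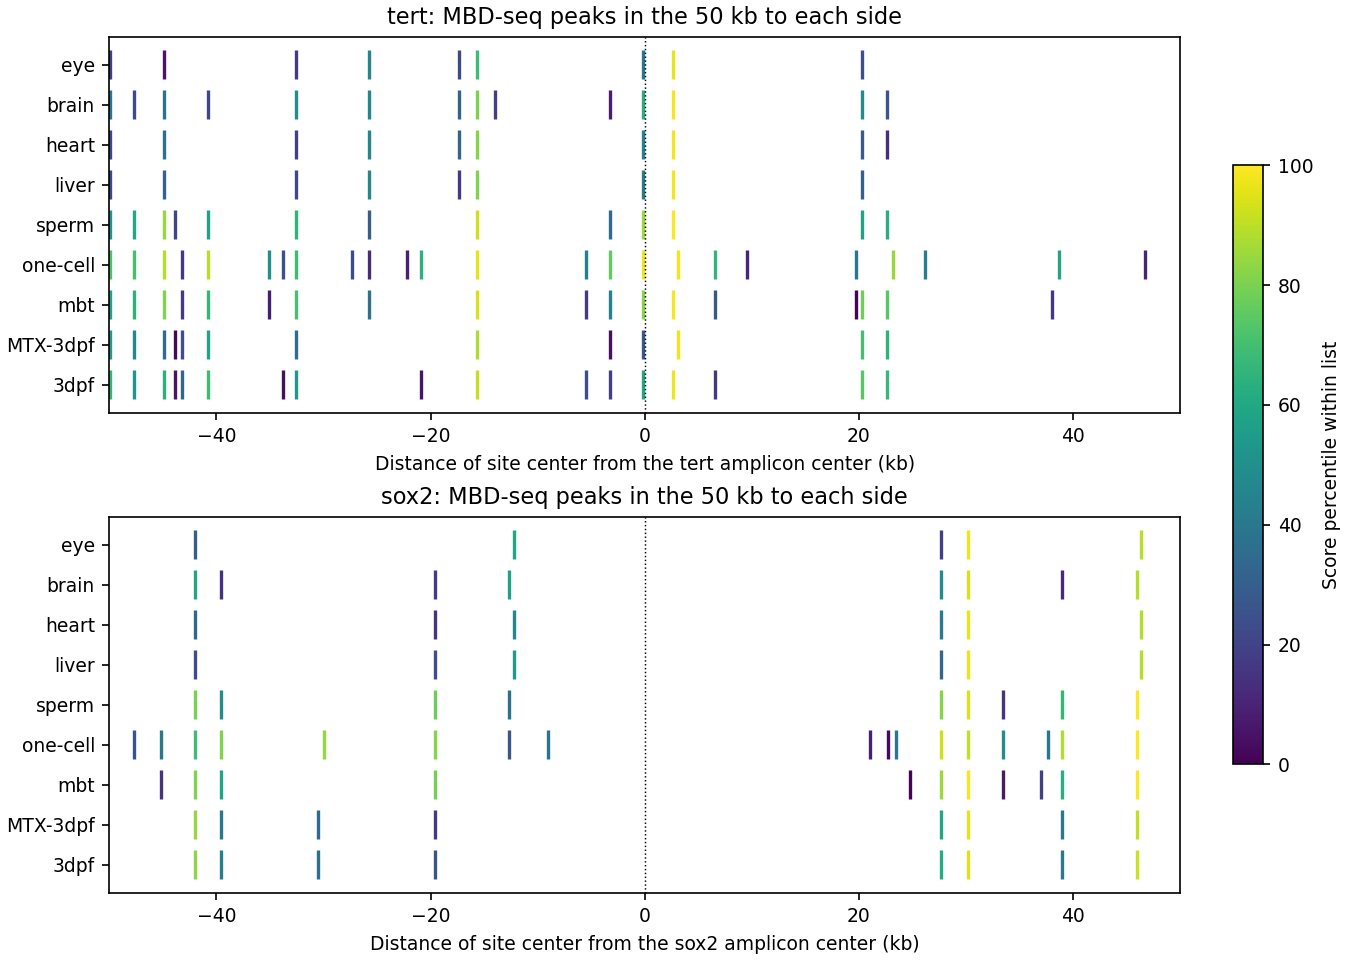
Peaks in the 50 kb to each side of the amplicons, with 1 row for each list, the distance from the amplicon center in kb on the x axis, and the score percentile within the list as color. Every row has a peak of the site at the tert amplicon and, just beyond it, a peak in one of a pair of neighboring sites, and sox2 sits in a stretch between 8.88 kb on the one side and 20.9 kb on the other where no list has a peak.

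Set against other spans, the one at sox2 was long, but many were longer. Over the 9 lists together, the span free of any peak was 29.9 kb, from 40323140 to 40353066, and it was the longest of the sox2 window, where the second was 15.8 kb and the median 1.85 kb. Of the 221141 such spans on the 25 chromosomes, 4436 were at least as long, and the median was 3.12 kb. These long spans made up 13.9% of the chromosomes' length and 9.0% of chromosome 22. Without the one-cell list, which set both ends, the joint span was 36.8 kb, and leaving out any other list left it at 29.9 kb. The tert window held an even longer joint span, of 35.5 kb, between 684216 and 719756 on the high-coordinate side. In single lists, the sox2 span was 1.28 times the mean span in eye and 3.89 times in mbt, and spans of that length or more covered 67.1% of the chromosomes in eye but 22.0% in mbt.

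In peak number, both windows stood above the middle of the genome. The tert window held 39 peaks in brain, 27 in eye, 29 in heart and 29 in liver, against 50 in sperm, 80 at the one-cell stage, 66 in mbt and 58 in 3dpf. The sox2 window held 49 peaks in brain, 29 in eye, 34 in heart and 37 in liver, against 67 in sperm, 115 at the one-cell stage, 81 in mbt and 70 in 3dpf. Every terminal list had fewer peaks than every embryonic list in both windows, as was the case over the whole genome. Among 2700 non-overlapping windows of the same width on the chromosomes, the tert window ranked between the percentile 85.4, in heart, and 74.7, in one-cell embryos, and the sox2 window between 88.3 in eye and 96.4 in one-cell embryos. The locus cited as methylation-poor thus lay in a window with more peaks than most. This count covers the whole window, whereas the sox2 amplicon itself had no peak in any list. It was not adjusted for CpG density and does not bear on the description of the locus.

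Counted per list, the tert window had fewer peaks than the sox2 window in all 8 untreated lists and in MTX-3dpf. The mean difference, tert minus sox2, was −13 peaks (exact sign-flip permutation test over the 8 untreated lists, two-sided, p = 0.00781, the smallest p this design allows, adjusted p = 0.0312 over the 4 tests). The lists are different tissues and stages on 1 genome, and the p says only how regular the difference was over them. The call held with lists of equal length (−3.625 peaks, adjusted p = 0.0312 by the same exact test) and with 500 kb to each side (−30.1 peaks, adjusted p = 0.0312 by the same exact test). Without any 1 list the adjusted p was 0.0625, the smallest that the remaining lists allow, and with peaks that reached the median score in their own list the difference was −5.125 (adjusted p = 0.125 by the same exact test). With 100 kb to each side in place of 250 kb, the difference was −0.25 peaks (adjusted p = 0.922 by the same exact test), and as a density relative to the own chromosome, an alternative chosen after seeing the data, the tert window was the denser one by 0.0409 (adjusted p = 0.886 by the same exact test). Relative to its chromosome, the tert window held between 1.76 times the mean density in eye and 1.23 times in one-cell embryos, and the sox2 window between 1.40 times in brain and 1.67 times in liver.

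Per 10000 peaks of a list, which takes out list length, the classes overlapped in both windows. The tert window held 4.94 in brain, 5.90 in eye, 5.79 in heart and 5.78 in liver, against 5.18 in sperm, 4.48 at the one-cell stage, 5.39 in mbt and 5.69 in 3dpf. The difference of the means, terminal minus embryonic, was 0.414 (exact permutation test, two-sided, p = 0.286, adjusted p = 0.571). In the sox2 window the mean was 6.67 ± 0.530 in terminal tissues and 6.72 ± 0.233 in embryonic samples (SD, n = 4 each), a difference of −0.0428 (exact permutation test, p = 0.886, adjusted p = 0.886), and its sign turned without eye, brain, sperm or 3dpf, at most to 0.115. With other widths, the tert difference was 0.592 with 100 kb to each side (exact p = 0.0286, adjusted p = 0.114) and 0.0466 with 500 kb (exact p = 0.857, adjusted p = 0.886). For tert the direction turned when only high-scoring peaks were counted. The difference was −1.46 with peaks that reached the median score in their own list (p = 0.0286, the smallest this exact test allows, adjusted p = 0.114). With lists of equal length it was −0.819 (p = 0.0571 by the exact test, adjusted p = 0.0762). Both values rest on the same scores as the ranks of the window's peaks given below, so they are not results separate from those ranks.

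**Figure D3:**
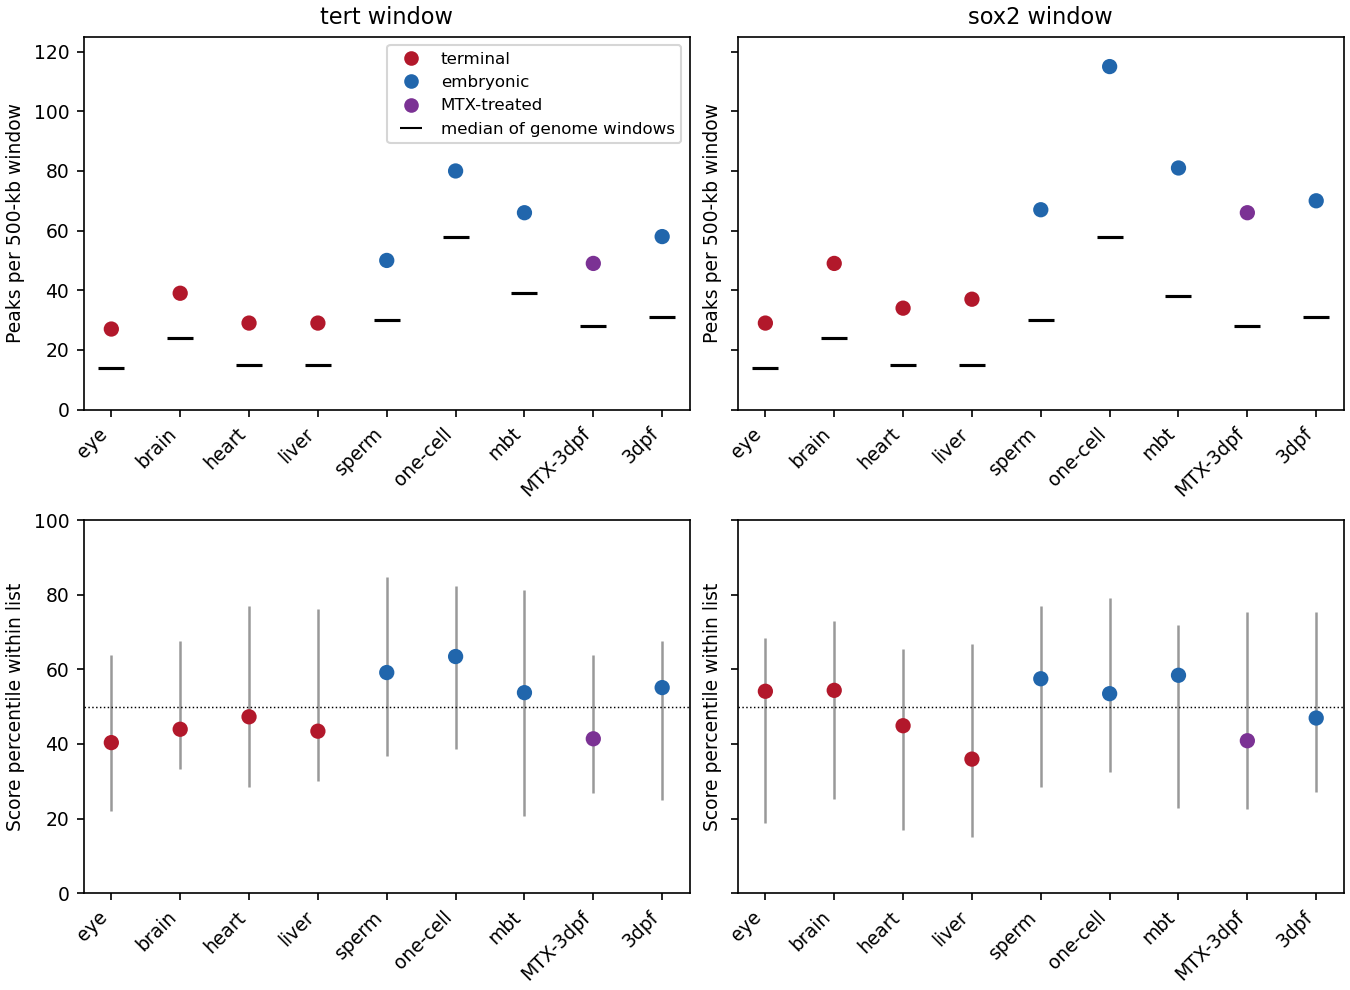
Upper panels, peaks per window in each list (points) with the median of the genome's windows in the same list (short horizontal lines); lower panels, median score percentile of the window's peaks (points) with the quartiles (lines), and a dotted line at 50. All points of the upper panels lie above these lines, and in the tert window the medians of the 4 terminal tissues lie between 40.4 and 47.3, below those of the 4 embryonic samples. The median of MTX-3dpf, at 41.4, lies within that terminal range.

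The peaks of the tert window ranked lower in the terminal lists than in the untreated embryonic lists. MTX-3dpf, which was left out of both classes, lay within the terminal range. Its median score percentile was 41.4, and 38.8% of its peaks there were at or above the median score of its list. In the tert window the median score percentile was 43.9 in brain, 40.4 in eye, 47.3 in heart and 43.4 in liver, against 59.2 in sperm, 63.4 at the one-cell stage, 53.8 in mbt and 55.1 in 3dpf, and the classes did not overlap. Such a separation, with every terminal median below every embryonic one, was met in 8.49% of 2698 genome windows of this width, and the opposite separation in 8.75%. At or above the median score of its list, where the whole lists have 50% or 50.1% of their peaks, the tert window had between 38.5% of the peaks in brain and 44.8% in heart and liver, against between 56.1% in mbt and 68.0% in sperm. The Wilson 95% intervals, which cover counting error only, were wide, 24.9% to 54.1% in brain and 54.2% to 79.2% in sperm. In the sox2 window the medians overlapped, at 54.4 in brain, 54.1 in eye, 44.9 in heart and 35.9 in liver, against 57.5 in sperm, 53.5 at the one-cell stage, 58.4 in mbt and 47.0 in 3dpf.

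A stretch 46.0 kb from the amplicon held some of the highest-ranked peaks of the sox2 window. The site there, which starts at 40377979, stood at the percentile 88.7 in brain, against 99.9 in sperm, 99.8 at the one-cell stage, 99.7 in mbt and 92.1 in 3dpf, and it was the highest of the window in sperm, one-cell embryos and mbt. In MTX-3dpf it stood at 90.8. Eye, heart and liver had no peak at this site but had one at the next, which starts at 40378323 and was picked with its values in view, with percentiles between 88.3 in heart and 89.1 in eye. Both were counted as separate sites, so a stretch with a high-ranking peak in all 9 lists appears as not shared. The highest-ranked peak of MTX-3dpf in the window, at 97.3, lay 63.5 kb from the amplicon, and that of 3dpf, at 95.8, lay 245.3 kb from it.

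The peaks were spread unevenly over both windows, on opposite sides of the amplicon. Around tert, between 32.1% of the peaks in liver and 41.8% in one-cell embryos lay on the high-coordinate side. Around sox2 that share was 69.4% in brain, 69.0% in eye, 76.5% in heart and 70.3% in liver, against 64.2% in sperm, 55.7% at the one-cell stage, 61.7% in mbt and 60.0% in 3dpf. The shares of the classes did not overlap around sox2, which was also the case, in either direction, for a side of 26.2% of the genome's windows. In bins of 25 kb, the first bin on the high-coordinate side of sox2 had no peak in 7 of the 9 lists, and it was the only such bin of the 20 in the window. The tert window had 2 bins without a peak in at least 7 lists, and over the chromosomes 21.9% of the bins were of this kind.

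Sharing across samples was counted over the 98 sites of the tert window and the 151 sites of the sox2 window. In all 9 lists were 19 of the tert sites, 19.4% (95% CI 12.8 to 28.3, Wilson), and 17 of the sox2 sites, 11.3% (95% CI 7.15 to 17.3), against 12.2% of all sites. The interval around tert lies above the share of all sites by a small margin, and treats neighboring sites as independent. Of the tert sites, 24 were found in 1 list, 24.5%, and of the sox2 sites 53, 35.1%, against 37.2% of all sites. Most sites of 1 list belonged to one-cell embryos, 19 around tert (19.4%) and 41 around sox2 (27.2%), against 26.8% of all sites. In lists of equal length, the share of sites in all 9 lists was 23.4% around tert and 23.2% around sox2, against 17.7% of all sites, so the difference between the windows was not seen at equal list length.

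**Figure D4:**
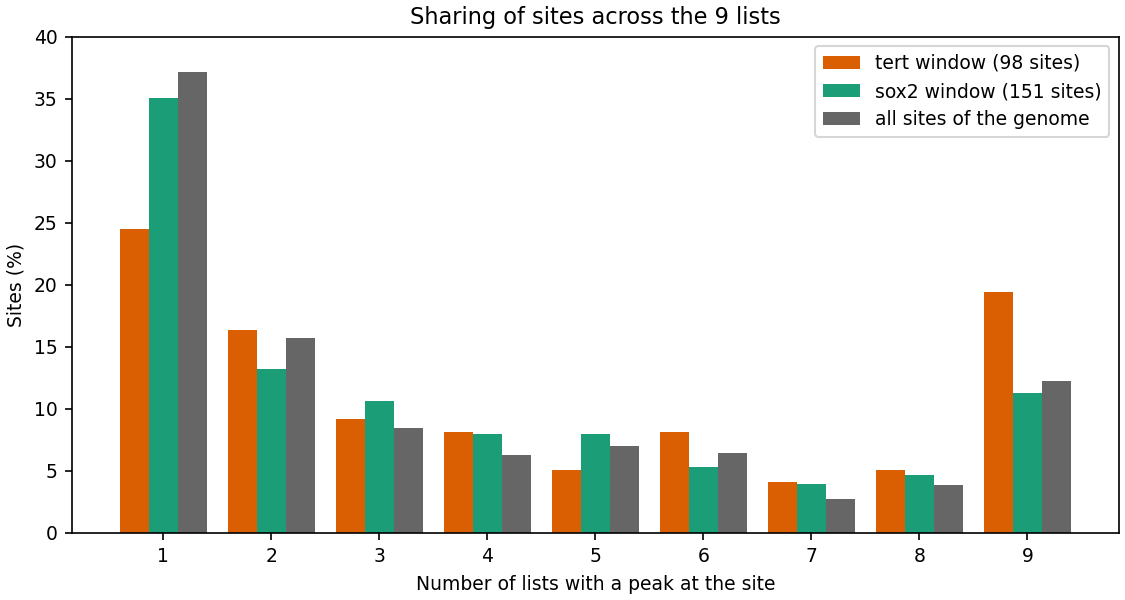
Share of the sites, in percent, by the number of lists that had a peak there, for the tert window, the sox2 window and all sites of the genome. The tert bar is above that of all sites at 9 lists (19.4% against 12.2%) and below it at 1 list (24.5% against 37.2%), and the sox2 bars differ less from those of all sites.

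All 4 terminal tissues held 25 tert sites, 25.5% (95% CI 17.9 to 34.9), and 24 sox2 sites, 15.9%, against 16.6% of all sites. No terminal tissue had a peak at 58 of the tert sites, 59.2%, and at 96 of the sox2 sites, 63.6%, against 62.8% of all sites. Sites of all 4 embryonic samples that no terminal tissue held numbered 7 around tert and 8 around sox2, 7.14% and 5.30%, against 5.44% of all sites. Brain without eye, heart and liver held 9 tert sites and 13 sox2 sites, 9.18% and 8.61%, against 13.1% of all sites. One-cell and mbt alone shared 9 tert sites and 12 sox2 sites, 9.18% and 7.95%, against 8.94% of all sites. Terminal tissues alone held 2 tert sites and 4 sox2 sites, 2.04% and 2.65%, against 4.55% of all sites.

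Averaged within and between the classes, the untreated lists shared more of their sites in the tert window than over the whole genome. The Jaccard index, sites in both lists over sites in either, had a mean of 0.784 among terminal tissues around tert, against 0.672 over all sites. Among the embryonic samples it was 0.614, against 0.512 over all sites, and between the classes 0.431, against 0.359. In the sox2 window the same means were 0.648, 0.506 and 0.347, each just under its value over all sites. Around tert, only the pair of eye and heart among the untreated lists went the other way, with 0.806, against 0.831 over all sites. For MTX-3dpf and 3dpf the index was 0.783 around tert and 0.863 around sox2, against 0.789 over all sites. The pairs share lists, and no test was made of these means.

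Sites found in all 9 lists ranked above the others within nearly every list. In the tert window their median percentile was 63.3 in brain, 49.7 in eye, 56.1 in heart and 60.0 in liver, against 86.2 in sperm, 86.5 at the one-cell stage, 84.7 in mbt and 77.7 in 3dpf. Over the whole lists the medians of such sites were 71.0 in brain, 54.3 in eye, 59.3 in heart and 59.1 in liver, against 80.4 in sperm, 85.8 at the one-cell stage, 84.7 in mbt and 80.1 in 3dpf. The tert sites were thus below the sites of the whole list in eye, brain, heart and 3dpf and above them in sperm, and differed by less than 1 point in liver, one-cell embryos and mbt. MTX-3dpf had the largest gap, with 63.8 around tert, against 77.2 over its whole list. In the sox2 window the eye list was an exception, where the 17 sites of all 9 lists had a median of 46.2 and the 11 sites of 2 to 8 lists one of 61.8.

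MTX-3dpf had 49 peaks in the tert window, against 58 in 3dpf, and 66 in the sox2 window, against 70 in 3dpf. Of the MTX-3dpf peaks around tert, 47 of 49 overlapped a peak of 3dpf, 95.9% (95% CI 86.3 to 98.9, Wilson), and around sox2 63 of 66 did, 95.5% (95% CI 87.5 to 98.4), against 92.5% of the whole list. In the other direction, 81.0% of the 3dpf peaks around tert and 90% of those around sox2 overlapped a peak of MTX-3dpf, against 83.4% of the whole list. The 2 peaks around tert that did not overlap one of 3dpf stood at the percentiles 2.0 and 97.7, and the higher one is the peak beside the amplicon described above. The 11 peaks that 3dpf alone had there had a median percentile of 16.6, against 59.1 for its shared peaks. The highest of the 11, at 97.5, is the 3dpf peak beside the amplicon described above. Less-shared peaks ranked low over the whole 3dpf list too. Their median was 10.1 at sites of 1 list and 38.8 at sites of 2 to 8 lists, against 80.1 at sites of all 9.

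The tert window ranked lower in MTX-3dpf. The median score percentile of its peaks was 41.4 in MTX-3dpf, against 55.1 in 3dpf, and a difference this low or lower was found in 1.67% of the genome's windows, whose median difference was −0.442. In the sox2 window the medians were 40.9 in MTX-3dpf and 47.0 in 3dpf, with 17.9% of the genome's windows as low or lower. At sites that both lists held, the percentile was lower in MTX-3dpf at 43 of 47 around tert and at 54 of 63 around sox2, 91.5% and 85.7%, against 69.7% of all such sites. The median difference, MTX-3dpf minus 3dpf, was −10.9 around tert and −6.17 around sox2, against −3.60 over all such sites. At the tert amplicon the percentile was 28.0 in MTX-3dpf and 59.1 in 3dpf, and 0.918% of the shared sites had a difference of that size or larger in this direction. With 1 list of each kind, neighboring sites of 1 library are not independent, and whether a second pair of libraries would show the same was not tested. MTX-3dpf also had fewer unique, properly paired reads than 3dpf, per the supplement of the study, and an effect of depth was not tested.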

How the data were processed

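MBD-seq peaks of 9 conditions were analysed; the 2 methylation-poor brain samples served the authors as controls and have no list of their own. Per the study's methods, the authors used BWA for alignment to Zv9, filtered on mapping quality and proper pairing, called peaks with MACS2 2.0.10.20120703 and widened each peak center by 100 bp to each side. The deposited files give an interval, whose start is counted from 0, and a score for each peak, which has no unit. Brain has 1 list, from lanes 4 and 5. Read depth is not in these lists and was not used here, and the number of peaks is no measure of it.

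Coordinates were taken as counted from 1. Windows, spans, sites and ranks came from scripts in Python 3.11.15 that used SciPy 1.17.1, NumPy 2.4.6 and pandas 2.3.3, which were tested on simulated lists, where all 4970 built-in common sites were recovered. Chromosome length was the largest peak end, and unplaced scaffolds stayed out of window and span backgrounds. Terminal and embryonic lists were compared by exact permutation tests. The tert and sox2 windows were compared by an exact sign-flip permutation test, paired over the 8 untreated lists. The p-values were adjusted by Benjamini-Hochberg over these 4 tests with a threshold of 0.05. Named sites were the nearest to each amplicon, the nearest ones held by all lists, the highest-ranked peak of each list and the longest span free of peaks; others are said to be chosen later. The loci, lists and tests were chosen with earlier results of these data known. Alternatives were high-scoring peaks only, equal list lengths, 100 kb and 500 kb to each side, a 100 bp overlap, merged peaks, shifted windows, chromosome shares and lists left out. The primer sequences and a Zv9 sequence or annotation were not used here.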

Additional observations from a re-analysis of the deposited data

Results flagged for a closer look

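In 6 of the 26 groups of 4 samples around both loci, 1 sample stood away from the rest by the Dixon ratio. Chance would give 1.3, and several of the 6 describe the same counts. Brain, which has the longest list of the terminal tissues and came from both lanes, stood apart in 5 of them. The tert window held 39 peaks in brain, against 27 to 29 in the other terminal tissues, which was 4.94 per 10000 peaks of its list against 5.78 to 5.90, and the percentile 77.1 among the genome's windows against 85.0 to 85.4. The peak beyond the tert amplicon began 2.43 kb away in brain, against 2.39 kb in the other terminal tissues, and the sox2 span was 40.2 kb in brain, against 39.7 kb. In one-cell embryos the peak beyond tert began 2.92 kb away, against 2.40 to 2.43 kb in the other embryonic samples.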

How the results depend on the processing

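With only the peaks that reached the median score in their own list, the class difference per 10000 peaks in the tert window became −1.46, tert minus sox2 −5.125 peaks, the class difference of the sox2 span 21.1 kb, the median genome percentile of the tert window 79.1 and of the sox2 window 88.6, and the median score percentile around sox2 42.5. With 100 kb to each side, the class difference was 0.592 in the tert window and 0.0890 in the sox2 window, tert minus sox2 −0.25 peaks, and the genome percentiles 90.7 for tert and 90.1 for sox2. With 500 kb, the class difference was 0.0466 in the tert window and 0.140 in the sox2 window, tert minus sox2 −30.1 peaks, and the tert percentile 79.2. As a share of the peaks on its chromosome, the class difference in the tert window was 23.3 per 10000 (exact permutation test, p = 0.0857, adjusted p = 0.171). In the sox2 window it was 0.747 per 10000. In lists of equal length, the class difference in the tert window was −0.819, that of the sox2 span −12.8 kb, tert minus sox2 −3.625 peaks, and 23.4% of the tert and 23.2% of the sox2 sites were in all 9 lists, against 17.7% of all sites. Relative to chromosome density, tert minus sox2 was 0.0409. Leaving out each list in turn, the class difference ran from 0.179 to 0.636 for tert, from −0.276 to 0.115 for sox2 and from −3.92 to 1.77 kb for the sox2 span, and tert minus sox2 from −14.6 to −9.86 peaks. The adjusted p of tert minus sox2 was then 0.0625, because fewer lists raise the smallest exact p to 0.0156. Terminal and embryonic lists could not be paired, because each condition has 1 list and no replicate numbers pair the classes. The tert and sox2 windows were compared as pairs within each list. The causes of these changes were otherwise not tested. Each window holds few peaks per list, so counting error alone is large, and score ranks depend on list length.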

Other observations

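The following site was chosen after its values were seen. It lies 17.3 kb from the tert amplicon on the low-coordinate side, starts at 588153, and was held by each of the 4 terminal tissues, by no embryonic sample and not by MTX-3dpf, with the percentiles 31.4 in brain, 22.1 in eye, 31.9 in heart and 17.0 in liver. The share of all sites with this pattern was not computed. Sites held by terminal tissues alone, by any number of them, made up 4.55% of all sites. The next site from there toward the amplicon, which starts at 589834, was in all 9 lists.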
